A study of Homo sapiens with 12 samples.

Results

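The genes described here are 54 genes of cell division, taken by symbol from a gene count matrix of 58307 gene rows. They comprise regulators of mitotic entry, the spindle assembly checkpoint, the Aurora kinases, the kinetochore, mitotic kinesins, spindle and centrosome proteins, cytokinesis, anaphase, condensin, and the pair MKI67 and FOXM1. Each symbol matched 1 row, and all 54 passed the filter on low counts in every comparison. The genes were chosen by function and not by their response, although earlier results of these data were known when the list was made.

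Most of these genes are transcribed late in the cell cycle, in G2 and mitosis, and are low in cells that are not cycling. The DREAM complex represses them in quiescent cells, and B-MYB with the MuvB core and then FOXM1 activates them as cells approach division. Their products condense the chromosomes, build the spindle, attach kinetochores to microtubules, delay anaphase until every kinetochore is attached, and split the cell, and their joint mRNA level is widely used as a measure of proliferation in tumours.

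The study sequenced polyA RNA from A375 and SK-MEL-28, human malignant melanoma lines, in cells given etoposide and in cells given etoposide with rapamycin, to examine what accompanies drug sensitivity when autophagy is induced. Etoposide poisons topoisomerase II and leaves double-strand DNA breaks, and rapamycin inhibits mTORC1 and induces autophagy. There were 3 libraries in each of 4 groups: A375 with etoposide, A375 with etoposide + rapamycin, SK-MEL-28 with etoposide, and SK-MEL-28 with etoposide + rapamycin. All 4 groups carried etoposide, so the data here compare rapamycin on top of etoposide and not etoposide with untreated cells. Dose and time of exposure of the sequenced cells are not given in the sources used here. In bulk RNA a lower share of dividing cells and less mRNA per dividing cell cannot be told apart.

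The line names below are those of the labels, and a check added after the data were seen limits them. In 6 of the 12 libraries the expression of a gene tied to the known origin of the labelled line did not match that line, and these were the 6 libraries labelled SK-MEL-28. Between the libraries labelled A375 and those labelled SK-MEL-28, 110 of 19025 genes differed by over 8-fold with etoposide and 125 of 18817 with etoposide + rapamycin (edgeR's quasi-likelihood test, Benjamini-Hochberg adjusted p under 0.05, here called the edgeR adjusted p). Of 8 melanocyte lineage markers, MLANA, TYR and TYRP1 averaged under 1 CPM (counts scaled to library size by edgeR) over the 12 libraries, whereas SOX10, S100B and MITF were expressed in every group. The summed level of the 8 was 481 to 598 CPM with etoposide and 399.8 to 655 CPM with etoposide + rapamycin in A375, and 425 to 550.1 and 294 to 526 CPM in SK-MEL-28, and of the 7 tested 3 fell in A375 and 1 in SK-MEL-28. Between the lines, 3 of the 7 were higher and 1 lower in SK-MEL-28 with etoposide, when 31.7% of all genes differed. With etoposide + rapamycin 5 were higher and 1 lower, when 40.4% of all genes differed. Every statement on a difference between the lines is therefore a statement on libraries with those labels. The libraries held 28190672 to 32499659 counts, and the 54 genes took 0.114% to 0.145% of them. Mitochondrial genes took 4.15% to 4.50% with etoposide and 3.31% to 3.53% with etoposide + rapamycin in A375, and 4.66% to 5.06% and 4.49% to 4.58% in SK-MEL-28, so that they were lower with rapamycin without overlap in both lines. The leukocyte genes PTPRC, CD3E and CD14 averaged under 1 CPM over the 12 libraries, while the summed level of 4 leukocyte markers, carried by LYZ, went from 16.7 to 17.6 CPM with etoposide down to 6.17 to 7.61 CPM with etoposide + rapamycin in A375, and from 31.1 to 33.9 down to 14.9 to 19.7 CPM in SK-MEL-28. The 5 fibroblast markers summed to 25.2 to 28.7 and 20.9 to 25.03 CPM in A375, and to 40.4 to 45.9 and 35.9 to 37.5 CPM in SK-MEL-28, with etoposide and etoposide + rapamycin, and COL1A2 averaged under 1 CPM. The 4 endothelial markers, of which CDH5 averaged under 1 CPM, summed to 84.7 to 96.1 CPM with etoposide and 62.1 to 64.6 CPM with etoposide + rapamycin in A375, lower without overlap, and to 65.9 to 69.97 and 68.2 to 73.4 CPM in SK-MEL-28, where the groups overlapped, and 1 of the 4 had a higher response in SK-MEL-28 than in A375. The 5 keratinocyte markers, of which KRT5, KRT1 and DSG3 averaged under 1 CPM, summed to 62.0 to 72.9 and 57.7 to 64.4 CPM in A375 and to 48.1 to 60.4 and 54.2 to 61.5 CPM in SK-MEL-28, overlapping in both lines. The part of the mitochondrial share and of these marker lists in the results below was not tested.

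The mitotic genes as a group were higher with etoposide + rapamycin than with etoposide in A375, and showed no common shift in SK-MEL-28. In A375, 34 of the 54 genes rose and none fell (edgeR adjusted p under 0.05), when 14.3% of all 18844 genes tested rose, 13.8% fell and 28.1% changed in either direction. Their median log2 fold change was 0.48, against -0.01 for all genes tested, and 17 of the 34 rose by over 1.5-fold, a call that 5.89% of all genes met in either direction. In SK-MEL-28, 7 genes changed, of which CCNB1, CDC25B, BUB1, AURKA, INCENP and KIF20A fell and KIF11 rose, when 19.0% of all 18897 genes tested changed, 10.1% falling and 8.83% rising. The median there was -0.02, against 0.01 for all genes, and none of the 7 passed 1.5-fold, a call that 4.99% of all genes met. When every gene with at least 1 count in some library was kept, the SK-MEL-28 calls were 3, and in a test against a 1.5-fold change 1 gene (MKI67) passed in A375 and 0 in SK-MEL-28 by edgeR, with 0 also at an unadjusted p under 0.05, against 8 by DESeq2 without that fold. Leaving out 1 SK-MEL-28 library at a time left 2 to 6 calls, with 2 without etoposide replicate 3, 3 without etoposide replicate 2 or etoposide + rapamycin replicate 3, and 4 without etoposide + rapamycin replicate 2. The A375 count ranged from 30 to 33.

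The difference between the lines was itself tested, as the interaction of line and treatment over all 12 libraries. The response was lower in SK-MEL-28 than in A375 for 17 of the 54 genes and higher for none, when 2.97% of 20101 genes were lower, 2.66% were higher and 5.62% differed in either direction. By DESeq2, the tool of the study's methods, the response was lower for 29 of the 54 and higher for none, and in the edgeR test against a 1.5-fold change it differed for 1 (MKI67). The shares of all genes above are those of edgeR at the usual null. The share that DESeq2 called is not given here, so the 29 cannot be set against them. The median difference in response was -0.43 on the log2 scale, against 0.02 for all genes tested. Of the 17, 14 had risen in A375 without a call in SK-MEL-28 (PLK1, AURKB, BIRC5, CENPF, KIF18A, KIF2C, TACC3, GTSE1, PRC1, ANLN, CDC20, ESPL1, MKI67 and FOXM1). BUB1 had risen in A375 and fallen in SK-MEL-28, and CCNB1 and KIF20A had fallen in SK-MEL-28 alone among the calls. The log2 fold change was above that in SK-MEL-28 for 52 of the 54 genes in A375, the exceptions being BUB3 and MAD2L1. The summed level of the 54 genes was 1141 ± 7.54 CPM (SD, n = 3) with etoposide and 1437 ± 28.6 CPM with etoposide + rapamycin in A375, and 1223 ± 32.4 and 1200.0 ± 39.2 CPM in SK-MEL-28. Values of the 2 treatments did not overlap for 39 of the 54 genes in A375, against 42.6% of all genes tested, and for 16 in SK-MEL-28, against 35.9%.

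**Figure D1:**
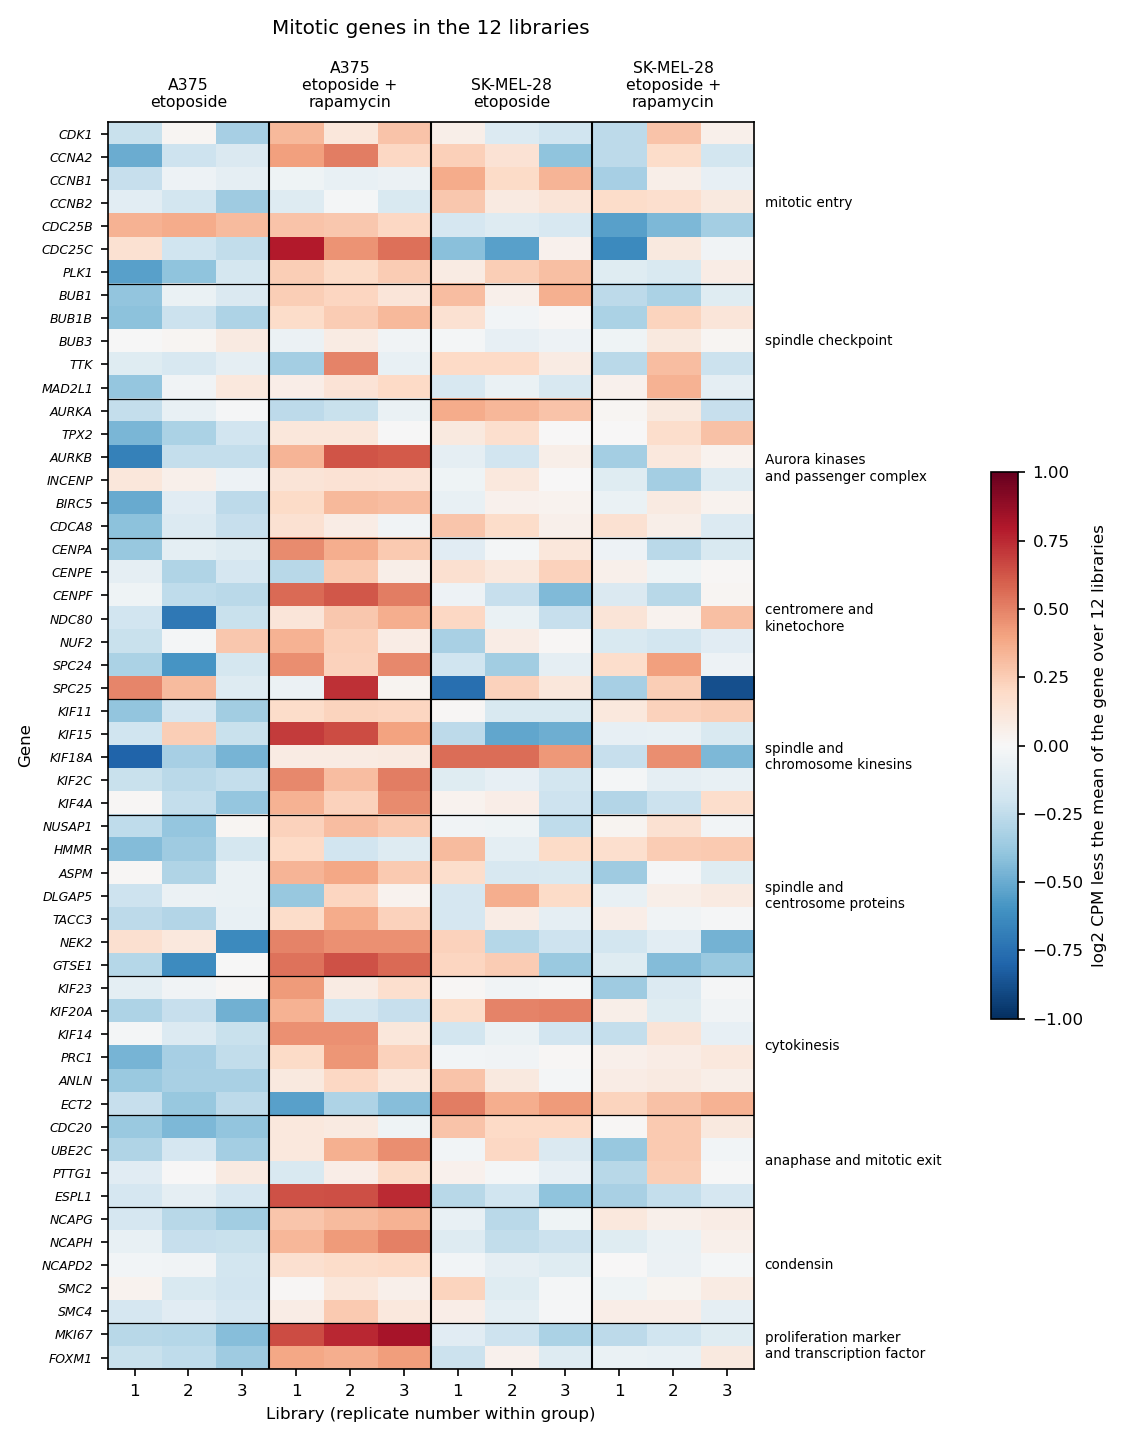
The 54 mitotic genes (rows, by role) in the 12 libraries (columns, by group), coloured by log2 CPM less the mean of the gene over all libraries. The counts that follow are set instead against the mean of the gene over the libraries of its own line. The 3 A375 libraries with etoposide + rapamycin lay above that line mean for 45 to 49 of the genes and the 3 A375 libraries with etoposide for 6 to 10. The 6 SK-MEL-28 libraries lay above theirs for 18 to 32.

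**Figure D2:**
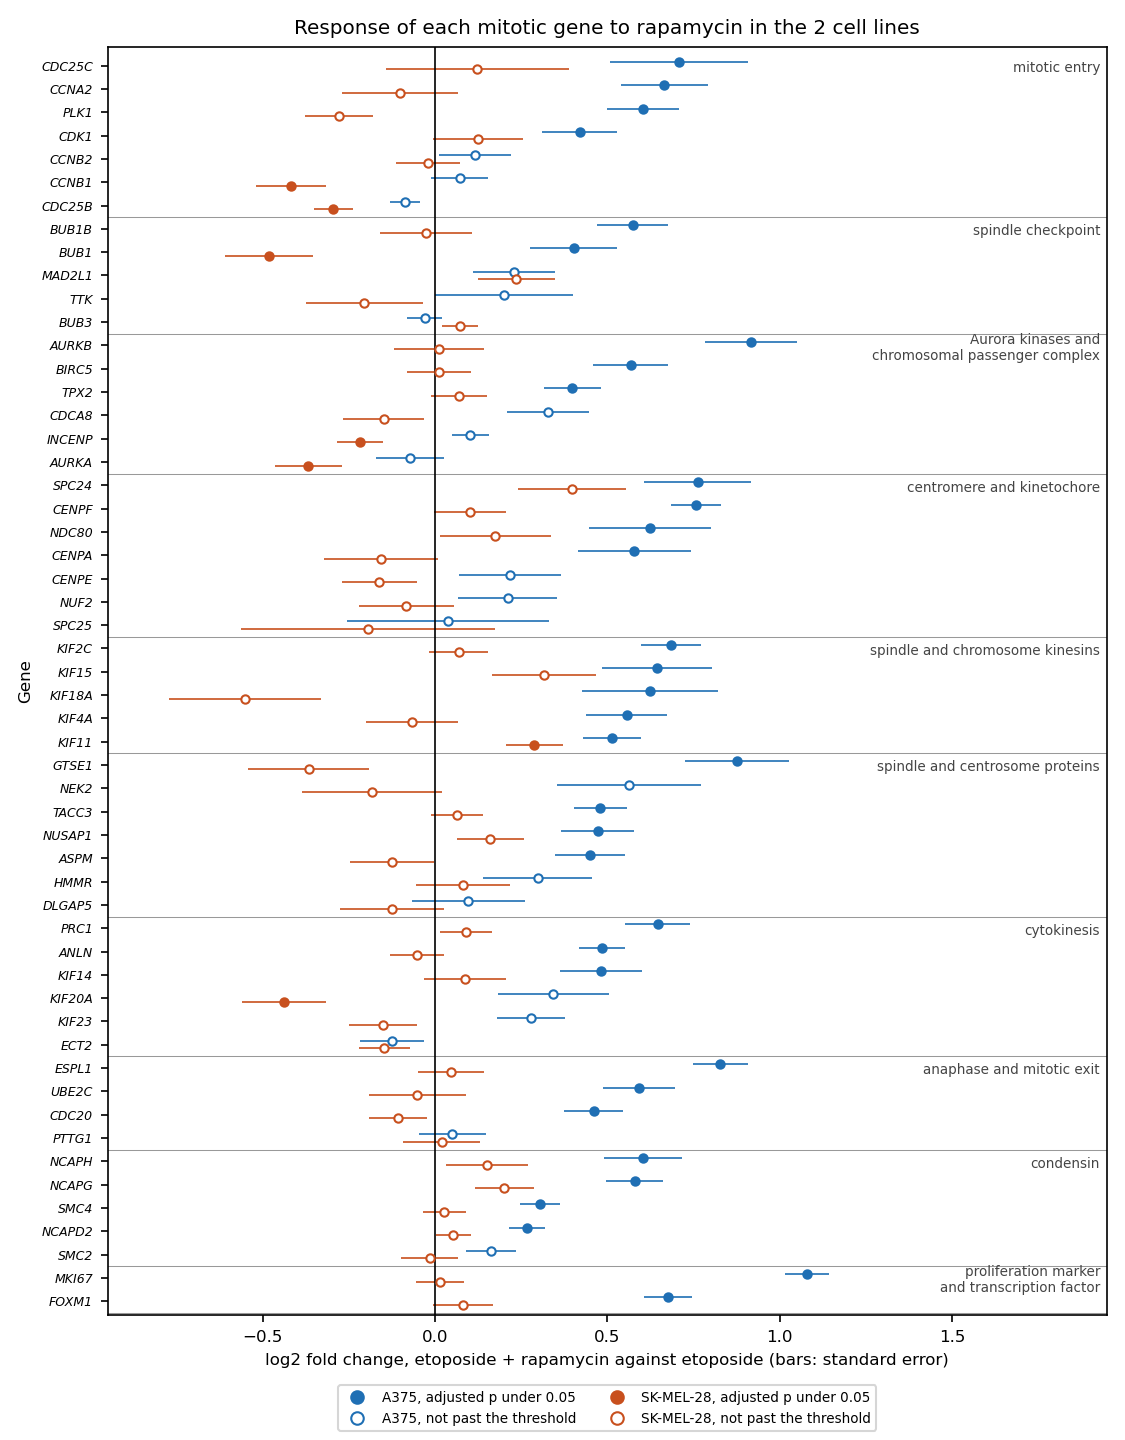
The log2 fold change of each gene between etoposide + rapamycin and etoposide (horizontal axis) in A375 (blue) and SK-MEL-28 (orange), with bars of 1 standard error and filled points for edgeR adjusted p under 0.05. The A375 point lies to the right of the SK-MEL-28 point in 52 of the 54 rows.

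MKI67 had the largest fold change of the 54 genes in A375. MKI67 encodes Ki-67, the antigen that coats mitotic chromosomes and is counted to grade proliferation in tumours. In A375 it measured 38.3, 38.1 and 34.6 CPM with etoposide and 73.1, 78.4 and 82.5 CPM with etoposide + rapamycin. Its SK-MEL-28 level was 43.00, 40.3 and 37.3 CPM with etoposide and 38.7, 40.5 and 42.8 CPM with etoposide + rapamycin. All 3 A375 libraries with rapamycin lay above the other 9 libraries, and the SK-MEL-28 groups overlapped. MKI67 rose by 1.08 on the log2 scale (SE 0.06, edgeR adjusted p = 3.48e-07) in A375, its log2 fold change in SK-MEL-28 was 0.01 (SE 0.07, edgeR adjusted p = 0.917), and the difference in response was -1.06 (SE 0.09, edgeR adjusted p = 7.89e-06). FOXM1 encodes the transcription factor that activates many G2 and mitotic genes. It measured 25.3, 24.8 and 23.1 CPM with etoposide and 38.8, 38.2 and 39.7 CPM with etoposide + rapamycin in A375. SK-MEL-28 gave 25.5, 30.6 and 27.1 CPM with etoposide and 28.3, 28.1 and 31.8 CPM with etoposide + rapamycin. The A375 groups were apart and the SK-MEL-28 groups overlapped. FOXM1 rose by 0.68 on the log2 scale (SE 0.07, edgeR adjusted p = 2.34e-05) in A375, against 0.08 (SE 0.09, edgeR adjusted p = 0.568) in SK-MEL-28, with a difference in response of -0.59 (SE 0.11, edgeR adjusted p = 0.00418).

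Of the 7 genes of mitotic entry, CDK1, CCNA2, CDC25C and PLK1 rose in A375 and CCNB1 and CDC25B fell in SK-MEL-28. PLK1, the Polo-like kinase that drives centrosome maturation and mitotic entry, measured 11.2, 12.4 and 14.5 CPM with etoposide and 19.5, 18.7 and 19.5 CPM with etoposide + rapamycin in A375. The SK-MEL-28 libraries held 17.4, 19.5 and 20.2 CPM with etoposide and 15.1, 14.8 and 17.3 CPM with etoposide + rapamycin. Rapamycin libraries were higher in A375 without overlap and lower in SK-MEL-28 without overlap. PLK1 rose by 0.60 on the log2 scale (SE 0.10, edgeR adjusted p = 9.90e-04) in A375, its log2 fold change in SK-MEL-28 was -0.28 (SE 0.10, edgeR adjusted p = 0.0684), and the responses differed by -0.87 (SE 0.14, edgeR adjusted p = 0.00207). CCNB1, cyclin B1, the partner of CDK1 at mitotic entry, gave 19.2, 21.8 and 21.2 CPM with etoposide and 21.9, 21.5 and 21.7 CPM with etoposide + rapamycin in A375. Its SK-MEL-28 values were 29.2, 25.7 and 28.5 CPM with etoposide and 17.9, 23.5 and 21.3 CPM with etoposide + rapamycin. The 3 SK-MEL-28 libraries with etoposide alone lay above the other 9 libraries. CCNB1 fell by 0.42 on the log2 scale (SE 0.10, edgeR adjusted p = 0.0113) in SK-MEL-28, with 0.07 (SE 0.08, edgeR adjusted p = 0.573) in A375 and a difference in response of -0.48 (SE 0.13, edgeR adjusted p = 0.0415). The SK-MEL-28 call of CCNB1 was lost without SK-MEL-28 etoposide replicate 3, where its edgeR adjusted p was 0.0511, and its difference in response was no longer called when any 1 of A375 etoposide replicates 1 and 3, A375 etoposide + rapamycin replicates 1, 2 and 3, SK-MEL-28 etoposide replicates 1 and 3 and SK-MEL-28 etoposide + rapamycin replicates 1 and 3 was left out (edgeR adjusted p between 0.0680 and 0.0963). CDC25B, a phosphatase that activates CDK1, measured 121, 122.6 and 119 CPM with etoposide and 115, 114 and 109.7 CPM with etoposide + rapamycin in A375. Levels in SK-MEL-28 were 84.6, 86.9 and 84.9 CPM with etoposide and 65.04, 69.4 and 74.9 CPM with etoposide + rapamycin. All 6 SK-MEL-28 libraries lay below all 6 A375 libraries, and within each line the rapamycin libraries lay below the others. CDC25B fell by 0.30 on the log2 scale (SE 0.06, edgeR adjusted p = 0.00265) in SK-MEL-28, against -0.09 (SE 0.04, edgeR adjusted p = 0.173) in A375, and was the only one of the 7 SK-MEL-28 calls that passed under all 14 alternative settings other than a test against a fold change of 1.5.

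In the spindle checkpoint, which holds anaphase until kinetochores are attached, BUB1 moved in opposite directions in the 2 lines. BUB1, a checkpoint kinase of the kinetochore, measured 5.73, 7.22 and 6.85 CPM with etoposide and 8.998, 8.82 and 8.26 CPM with etoposide + rapamycin in A375. For SK-MEL-28 the libraries read 9.38, 7.84 and 9.72 CPM with etoposide and 6.29, 6.07 and 6.96 CPM with etoposide + rapamycin. The groups did not overlap in either line. BUB1 rose by 0.40 on the log2 scale (SE 0.13, edgeR adjusted p = 0.0311) in A375 and fell by 0.48 on the log2 scale (SE 0.13, edgeR adjusted p = 0.0185) in SK-MEL-28, and the responses differed by -0.88 (SE 0.17, edgeR adjusted p = 0.00716). Its A375 call was lost when any 1 of A375 etoposide replicates 1 and 3 and A375 etoposide + rapamycin replicates 1, 2 and 3 was left out (edgeR adjusted p between 0.0549 and 0.0956), and its SK-MEL-28 call when any 1 of SK-MEL-28 etoposide replicates 1 and 3 and SK-MEL-28 etoposide + rapamycin replicates 1 and 2 was left out (edgeR adjusted p between 0.0530 and 0.0842). The interaction itself passed in all 19 alternatives other than the test against a fold change. BUB1B, the checkpoint protein BUBR1, rose by 0.57 on the log2 scale (SE 0.10, edgeR adjusted p = 0.00128) in A375, and its locus in the matrix also carries the name PAK6, so its counts are uncertain. BUB3, an abundant checkpoint protein with other roles outside mitosis, measured 115, 117 and 123.0 CPM with etoposide and 111, 122.5 and 113 CPM with etoposide + rapamycin in A375 and 114, 109 and 112 CPM with etoposide and 112, 124 and 117 CPM with etoposide + rapamycin in SK-MEL-28. Its groups overlapped in both lines, and its log2 fold changes were -0.03 (SE 0.05, edgeR adjusted p = 0.711) in A375 and 0.07 (SE 0.05, edgeR adjusted p = 0.382) in SK-MEL-28. MAD2L1, the checkpoint protein MAD2, measured 12.3, 15.7 and 17.3 CPM with etoposide and 16.8, 17.6 and 18.4 CPM with etoposide + rapamycin in A375 and 14.4, 15.3 and 14.3 CPM with etoposide and 16.5, 20.4 and 15.1 CPM with etoposide + rapamycin in SK-MEL-28. The groups overlapped in both lines, and neither difference passed the test, at 0.23 (SE 0.12, edgeR adjusted p = 0.175) in A375 and 0.24 (SE 0.11, edgeR adjusted p = 0.172) in SK-MEL-28.

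Among the Aurora kinases and the chromosomal passenger complex, which corrects wrong kinetochore attachments and then moves to the midzone, AURKB, BIRC5 and TPX2 rose in A375, and AURKA and INCENP fell in SK-MEL-28. AURKB, the kinase of the complex, measured 6.91, 9.35 and 9.34 CPM with etoposide and 14.01, 17.1 and 16.98 CPM with etoposide + rapamycin in A375. It measured 10.4, 9.66 and 11.5 CPM with etoposide and 8.72, 11.9 and 11.3 CPM with etoposide + rapamycin in SK-MEL-28. The 3 highest of the 12 libraries were those of A375 with rapamycin, and the SK-MEL-28 groups overlapped. AURKB rose by 0.92 on the log2 scale (SE 0.13, edgeR adjusted p = 3.23e-04) in A375, against 0.01 (SE 0.13, edgeR adjusted p = 0.967) in SK-MEL-28, and the responses differed by -0.90 (SE 0.20, edgeR adjusted p = 0.0138). INCENP, the scaffold of the same complex, measured 75.5, 72.2 and 67.3 CPM with etoposide and 76.2, 77.1 and 76.7 CPM with etoposide + rapamycin in A375. SK-MEL-28 libraries read 67.7, 75.2 and 69.8 CPM with etoposide and 64.1, 55.2 and 63.9 CPM with etoposide + rapamycin. The 3 SK-MEL-28 libraries with rapamycin were the lowest of the 12. INCENP fell by 0.22 on the log2 scale (SE 0.07, edgeR adjusted p = 0.0375) in SK-MEL-28, against 0.10 (SE 0.05, edgeR adjusted p = 0.178) in A375. That call was lost when any 1 of SK-MEL-28 etoposide replicates 2 and 3 and SK-MEL-28 etoposide + rapamycin replicates 2 and 3 was left out (edgeR adjusted p between 0.0654 and 0.149). TPX2, which activates Aurora A on the spindle, measured 23.6, 26.02 and 28.5 CPM with etoposide and 35.1, 35.1 and 32.3 CPM with etoposide + rapamycin in A375 and 34.8, 36.5 and 32.5 CPM with etoposide and 32.6, 36.7 and 39.8 CPM with etoposide + rapamycin in SK-MEL-28. The A375 groups did not overlap and the SK-MEL-28 groups did. TPX2 rose by 0.40 on the log2 scale (SE 0.08, edgeR adjusted p = 0.00321) in A375, with 0.07 (SE 0.08, edgeR adjusted p = 0.618) in SK-MEL-28. AURKA itself fell by 0.37 on the log2 scale (SE 0.10, edgeR adjusted p = 0.0190) in SK-MEL-28, and in A375 its log2 fold change was -0.07 (SE 0.10, edgeR adjusted p = 0.639). The SK-MEL-28 call of AURKA was lost when any 1 of SK-MEL-28 etoposide replicates 1, 2 and 3 and SK-MEL-28 etoposide + rapamycin replicate 3 was left out (edgeR adjusted p between 0.0523 and 0.0872).

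At the centromere and kinetochore, CENPF, CENPA, NDC80 and SPC24 rose in A375, and none of the 7 genes was called in SK-MEL-28. CENPF, a large outer kinetochore protein that accumulates in G2, measured 33.1, 28.5 and 28.2 CPM with etoposide and 50.3, 52.5 and 48.6 CPM with etoposide + rapamycin in A375. It measured 32.9, 28.98 and 25.1 CPM with etoposide and 30.8, 28.05 and 34.6 CPM with etoposide + rapamycin in SK-MEL-28. The A375 rapamycin libraries lay above the other 9. CENPF rose by 0.76 on the log2 scale (SE 0.07, edgeR adjusted p = 1.43e-05) in A375, against 0.10 (SE 0.10, edgeR adjusted p = 0.553) in SK-MEL-28, and the responses differed by -0.65 (SE 0.14, edgeR adjusted p = 0.0102). CENPE, the kinetochore kinesin that moves chromosomes to the metaphase plate, measured 7.54, 6.496 and 7.13 CPM with etoposide and 6.58, 9.63 and 8.32 CPM with etoposide + rapamycin in A375 and 8.96, 8.60 and 9.39 CPM with etoposide and 8.30, 7.79 and 8.06 CPM with etoposide + rapamycin in SK-MEL-28. The A375 groups overlapped, and the SK-MEL-28 groups did not. Its log2 fold changes of 0.22 (SE 0.15, edgeR adjusted p = 0.308) and -0.16 (SE 0.11, edgeR adjusted p = 0.347) did not pass the test. CENPA, the histone H3 variant of centromeric chromatin, measured 2.82, 3.44 and 3.37 CPM with etoposide and 5.15, 4.75 and 4.43 CPM with etoposide + rapamycin in A375 and 3.40, 3.64 and 3.98 CPM with etoposide and 3.55, 3.04 and 3.32 CPM with etoposide + rapamycin in SK-MEL-28. Only the A375 groups were apart. CENPA rose by 0.58 on the log2 scale (SE 0.16, edgeR adjusted p = 0.0196) in A375, a call lost when any 1 of A375 etoposide replicate 1 and A375 etoposide + rapamycin replicate 1 was left out (edgeR adjusted p between 0.0538 and 0.0706), and the difference in response was -0.73 (SE 0.21, edgeR adjusted p = 0.0581). The CENPA row belongs to a locus that the matrix also names SLC35F6, with mean counts of 112 for CENPA and 2080 for SLC35F6, so its values are uncertain. The subunits of the NDC80 complex, which binds microtubules, were not all called in A375, where NDC80 and SPC24 rose by 0.62 and 0.76 on the log2 scale, while NUF2 and SPC25 had log2 fold changes of 0.21 (SE 0.14, edgeR adjusted p = 0.315) and 0.04 (SE 0.29, edgeR adjusted p = 0.941). Whether the subunits differed from each other was not tested.

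All 5 genes of the role group of spindle and chromosome kinesins rose in A375, when 14.3% of all genes tested rose. Every gene was called in no other role group but the pair MKI67 and FOXM1. Kinesins placed in other role groups did not all rise, since KIF14 rose but KIF20A, KIF23 and CENPE were not called in A375. KIF2C, or MCAK, which depolymerizes microtubules at the centromere, measured 15.3, 14.8 and 15.1 CPM with etoposide and 24.9, 22.1 and 25.4 CPM with etoposide + rapamycin in A375. SK-MEL-28 gave 16.4, 16.8 and 15.6 CPM with etoposide and 17.6, 16.8 and 16.97 CPM with etoposide + rapamycin. A375 with rapamycin held the 3 highest of the 12 libraries. KIF2C rose by 0.69 on the log2 scale (SE 0.09, edgeR adjusted p = 1.20e-04) in A375, against 0.07 (SE 0.09, edgeR adjusted p = 0.636) in SK-MEL-28, and the responses differed by -0.61 (SE 0.11, edgeR adjusted p = 0.00419). KIF11, or Eg5, which pushes the spindle poles apart, measured 18.3, 21.4 and 18.8 CPM with etoposide and 27.3, 28.1 and 27.9 CPM with etoposide + rapamycin in A375. Its SK-MEL-28 level was 24.2, 21.6 and 21.6 CPM with etoposide and 25.8, 28.2 and 28.5 CPM with etoposide + rapamycin. The groups did not overlap in either line. KIF11 rose by 0.51 on the log2 scale (SE 0.08, edgeR adjusted p = 7.39e-04) in A375 and by 0.29 on the log2 scale (SE 0.08, edgeR adjusted p = 0.0264) in SK-MEL-28, where it was the sole gene of the 54 to rise. The SK-MEL-28 call was lost when any 1 of SK-MEL-28 etoposide replicates 2 and 3 and SK-MEL-28 etoposide + rapamycin replicates 2 and 3 was left out (edgeR adjusted p between 0.0742 and 0.103). KIF18A, which dampens chromosome oscillation at the plate, measured 1.74, 2.44 and 2.21 CPM with etoposide and 3.26, 3.26 and 3.29 CPM with etoposide + rapamycin in A375. The SK-MEL-28 libraries held 4.58, 4.56 and 4.19 CPM with etoposide and 2.61, 4.29 and 2.24 CPM with etoposide + rapamycin. The A375 groups were apart, and 1 SK-MEL-28 rapamycin library lay among the etoposide libraries while the other 2 lay well below. KIF18A rose by 0.62 on the log2 scale (SE 0.20, edgeR adjusted p = 0.0330) in A375, its value in SK-MEL-28 was -0.55 (SE 0.22, edgeR adjusted p = 0.103), and the responses differed by -1.17 (SE 0.31, edgeR adjusted p = 0.0347). Its A375 call was lost when any 1 of A375 etoposide replicates 1 and 3 and A375 etoposide + rapamycin replicates 1, 2 and 3 was left out (edgeR adjusted p between 0.0668 and 0.0919), and its difference in response when any 1 of A375 etoposide replicates 1 and 3, A375 etoposide + rapamycin replicates 1, 2 and 3, SK-MEL-28 etoposide replicates 1, 2 and 3 and SK-MEL-28 etoposide + rapamycin replicates 1 and 3 was left out (edgeR adjusted p between 0.0544 and 0.0783).

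Of the 7 spindle and centrosome proteins, GTSE1, TACC3, NUSAP1 and ASPM rose in A375 and none was called in SK-MEL-28. GTSE1, a microtubule plus-end protein of G2 and mitosis that also restrains p53, had the largest difference in response of the 54 genes. It measured 5.54, 4.33 and 6.74 CPM with etoposide and 9.84, 10.5 and 10.00 CPM with etoposide + rapamycin in A375. Levels in SK-MEL-28 were 7.85, 8.07 and 5.20 CPM with etoposide and 6.20, 4.97 and 5.20 CPM with etoposide + rapamycin. The A375 rapamycin libraries were the 3 highest of the 12, and 1 SK-MEL-28 etoposide library lay among those with rapamycin. GTSE1 rose by 0.88 on the log2 scale (SE 0.15, edgeR adjusted p = 0.00101) in A375, against -0.37 (SE 0.17, edgeR adjusted p = 0.171) in SK-MEL-28, and the responses differed by -1.23 (SE 0.25, edgeR adjusted p = 0.00754). TACC3, which stabilizes kinetochore fibres with clathrin, measured 29.7, 29.1 and 33.9 CPM with etoposide and 40.6, 46.2 and 41.9 CPM with etoposide + rapamycin in A375 and 31.8, 37.5 and 33.5 CPM with etoposide and 37.3, 34.9 and 35.4 CPM with etoposide + rapamycin in SK-MEL-28. The A375 groups did not overlap and the SK-MEL-28 groups did. TACC3 rose by 0.48 on the log2 scale (SE 0.08, edgeR adjusted p = 6.69e-04) in A375, and the responses differed by -0.41 (SE 0.11, edgeR adjusted p = 0.0382), a call lost when any 1 of A375 etoposide replicates 1 and 2, A375 etoposide + rapamycin replicates 2 and 3, SK-MEL-28 etoposide replicates 2 and 3 and SK-MEL-28 etoposide + rapamycin replicates 2 and 3 was left out (edgeR adjusted p between 0.0555 and 0.108). NUSAP1, which bundles spindle microtubules, measured 14.4, 13.2 and 17.4 CPM with etoposide and 20.1, 21.3 and 20.7 CPM with etoposide + rapamycin in A375 and 16.8, 16.6 and 14.4 CPM with etoposide and 17.6, 19.1 and 16.9 CPM with etoposide + rapamycin in SK-MEL-28. In both lines the rapamycin libraries lay above those with etoposide alone. NUSAP1 rose by 0.47 on the log2 scale (SE 0.11, edgeR adjusted p = 0.00528) in A375, with 0.16 (SE 0.10, edgeR adjusted p = 0.288) in SK-MEL-28 and a difference in response of -0.30 (SE 0.15, edgeR adjusted p = 0.252).

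Of the 6 cytokinesis genes, PRC1, ANLN and KIF14 rose in A375, KIF20A fell in SK-MEL-28, and KIF23 and ECT2 were called in neither. ANLN, anillin of the contractile ring, measured 26.7, 27.5 and 27.6 CPM with etoposide and 36.9, 39.8 and 37.4 CPM with etoposide + rapamycin in A375. For SK-MEL-28 the libraries read 42.02, 36.98 and 33.97 CPM with etoposide and 36.4, 36.8 and 36.01 CPM with etoposide + rapamycin. The A375 rapamycin libraries rose into the range of the SK-MEL-28 libraries. ANLN rose by 0.49 on the log2 scale (SE 0.07, edgeR adjusted p = 2.23e-04) in A375, against -0.05 (SE 0.08, edgeR adjusted p = 0.707) in SK-MEL-28, and the responses differed by -0.53 (SE 0.10, edgeR adjusted p = 0.00517). KIF20A, the kinesin that carries the passenger complex to the midzone, measured 6.85, 7.22 and 6.08 CPM with etoposide and 10.8, 7.47 and 7.21 CPM with etoposide + rapamycin in A375. SK-MEL-28 libraries read 9.65, 11.97 and 12.1 CPM with etoposide and 8.84, 7.79 and 8.29 CPM with etoposide + rapamycin. The SK-MEL-28 groups did not overlap, and in A375 a single rapamycin library stood above the rest. KIF20A fell by 0.44 on the log2 scale (SE 0.12, edgeR adjusted p = 0.0233) in SK-MEL-28, its log2 fold change in A375 was 0.34 (SE 0.16, edgeR adjusted p = 0.137), and the responses differed by -0.77 (SE 0.21, edgeR adjusted p = 0.0401). Its SK-MEL-28 call was lost when any 1 of SK-MEL-28 etoposide replicates 2 and 3 and SK-MEL-28 etoposide + rapamycin replicates 2 and 3 was left out (edgeR adjusted p between 0.0703 and 0.0993), and its difference in response when any 1 of A375 etoposide replicates 2 and 3, A375 etoposide + rapamycin replicate 1, SK-MEL-28 etoposide replicates 2 and 3 and SK-MEL-28 etoposide + rapamycin replicates 1, 2 and 3 was left out (edgeR adjusted p between 0.0519 and 0.105). ECT2, the exchange factor that activates RhoA at the cell equator, measured 19.96, 17.97 and 19.5 CPM with etoposide and 16.04, 18.9 and 17.5 CPM with etoposide + rapamycin in A375 and 33.4, 30.1 and 31.5 CPM with etoposide and 27.4, 28.7 and 29.8 CPM with etoposide + rapamycin in SK-MEL-28. All 6 SK-MEL-28 libraries lay above all 6 A375 libraries. ECT2 had log2 fold changes of -0.13 (SE 0.09, edgeR adjusted p = 0.356) in A375 and -0.15 (SE 0.07, edgeR adjusted p = 0.191) in SK-MEL-28.

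In anaphase and mitotic exit, ESPL1, CDC20 and UBE2C rose in A375 and PTTG1 did not pass the test, and none was called in SK-MEL-28. ESPL1 encodes separase, the protease that cuts cohesin at anaphase. It measured 16.5, 17.5 and 16.6 CPM with etoposide and 28.99, 29.2 and 31.3 CPM with etoposide + rapamycin in A375. SK-MEL-28 gave 15.3, 16.2 and 14.1 CPM with etoposide and 14.9, 15.8 and 16.6 CPM with etoposide + rapamycin. The A375 rapamycin libraries lay above the other 9 libraries. ESPL1 rose by 0.83 on the log2 scale (SE 0.08, edgeR adjusted p = 1.32e-05) in A375, against 0.05 (SE 0.10, edgeR adjusted p = 0.793) in SK-MEL-28, and the responses differed by -0.77 (SE 0.11, edgeR adjusted p = 7.96e-04). PTTG1 encodes securin, the inhibitor and chaperone that holds separase inactive, and measured 23.7, 25.7 and 27.3 CPM with etoposide and 23.1, 26.9 and 29.2 CPM with etoposide + rapamycin in A375. Its SK-MEL-28 level was 26.5, 25.3 and 24.2 CPM with etoposide and 21.2, 30.4 and 25.6 CPM with etoposide + rapamycin. The groups overlapped in both lines, with log2 fold changes of 0.05 (SE 0.10, edgeR adjusted p = 0.747) in A375 and 0.02 (SE 0.11, edgeR adjusted p = 0.930) in SK-MEL-28. CDC20, the activator of the anaphase-promoting complex that the checkpoint blocks, measured 16.5, 15.6 and 16.2 CPM with etoposide and 23.00, 22.7 and 20.7 CPM with etoposide + rapamycin in A375 and 26.1, 24.5 and 24.6 CPM with etoposide and 21.6, 25.6 and 22.9 CPM with etoposide + rapamycin in SK-MEL-28. The A375 groups did not overlap, and the SK-MEL-28 groups did. CDC20 rose by 0.46 on the log2 scale (SE 0.09, edgeR adjusted p = 0.00159) in A375, against -0.11 (SE 0.08, edgeR adjusted p = 0.431) in SK-MEL-28, and the responses differed by -0.56 (SE 0.11, edgeR adjusted p = 0.00812).

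The 5 genes of condensin, the ring complex that compacts mitotic chromosomes, had a median log2 fold change of 0.30 in A375, against 0.05 for SK-MEL-28. NCAPG, NCAPH, NCAPD2 and SMC4 rose in A375, SMC2 did not pass the test, and none of the 5 was called in SK-MEL-28 or in the difference in response. NCAPH, the kleisin subunit of condensin I, measured 7.37, 6.63 and 6.67 CPM with etoposide and 9.80, 10.5 and 11.04 CPM with etoposide + rapamycin in A375 and 7.10, 6.55 and 6.71 CPM with etoposide and 7.17, 7.43 and 8.06 CPM with etoposide + rapamycin in SK-MEL-28. The A375 rapamycin libraries were the highest of the 12. NCAPH rose by 0.60 on the log2 scale (SE 0.11, edgeR adjusted p = 0.00176) in A375, with 0.15 (SE 0.12, edgeR adjusted p = 0.425) in SK-MEL-28 and a difference in response of -0.44 (SE 0.15, edgeR adjusted p = 0.0948). SMC4, an ATPase subunit shared by condensin I and II, measured 52.8, 54.8 and 52.5 CPM with etoposide and 62.4, 71.04 and 63.7 CPM with etoposide + rapamycin in A375 and 61.9, 55.4 and 58.6 CPM with etoposide and 61.9, 62.1 and 55.7 CPM with etoposide + rapamycin in SK-MEL-28. Only the A375 groups were apart. SMC4 rose by 0.30 on the log2 scale (SE 0.06, edgeR adjusted p = 0.00221) in A375, with 0.03 (SE 0.06, edgeR adjusted p = 0.809) in SK-MEL-28. NCAPD2, a HEAT-repeat subunit of condensin I, measured 119, 118 and 106 CPM with etoposide and 135, 137 and 139 CPM with etoposide + rapamycin in A375 and 119, 113 and 111 CPM with etoposide and 121, 116 and 119 CPM with etoposide + rapamycin in SK-MEL-28. Its A375 rapamycin libraries were the highest of the 12, and it rose by 0.27 on the log2 scale (SE 0.05, edgeR adjusted p = 0.00223) there, the smallest of the 34 changes called in A375. The NCAPD2 locus in the matrix carries the names of SCARNA10 and a further transcript as well, at mean counts of 0.917 each against 3628.

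**Figure D3:**
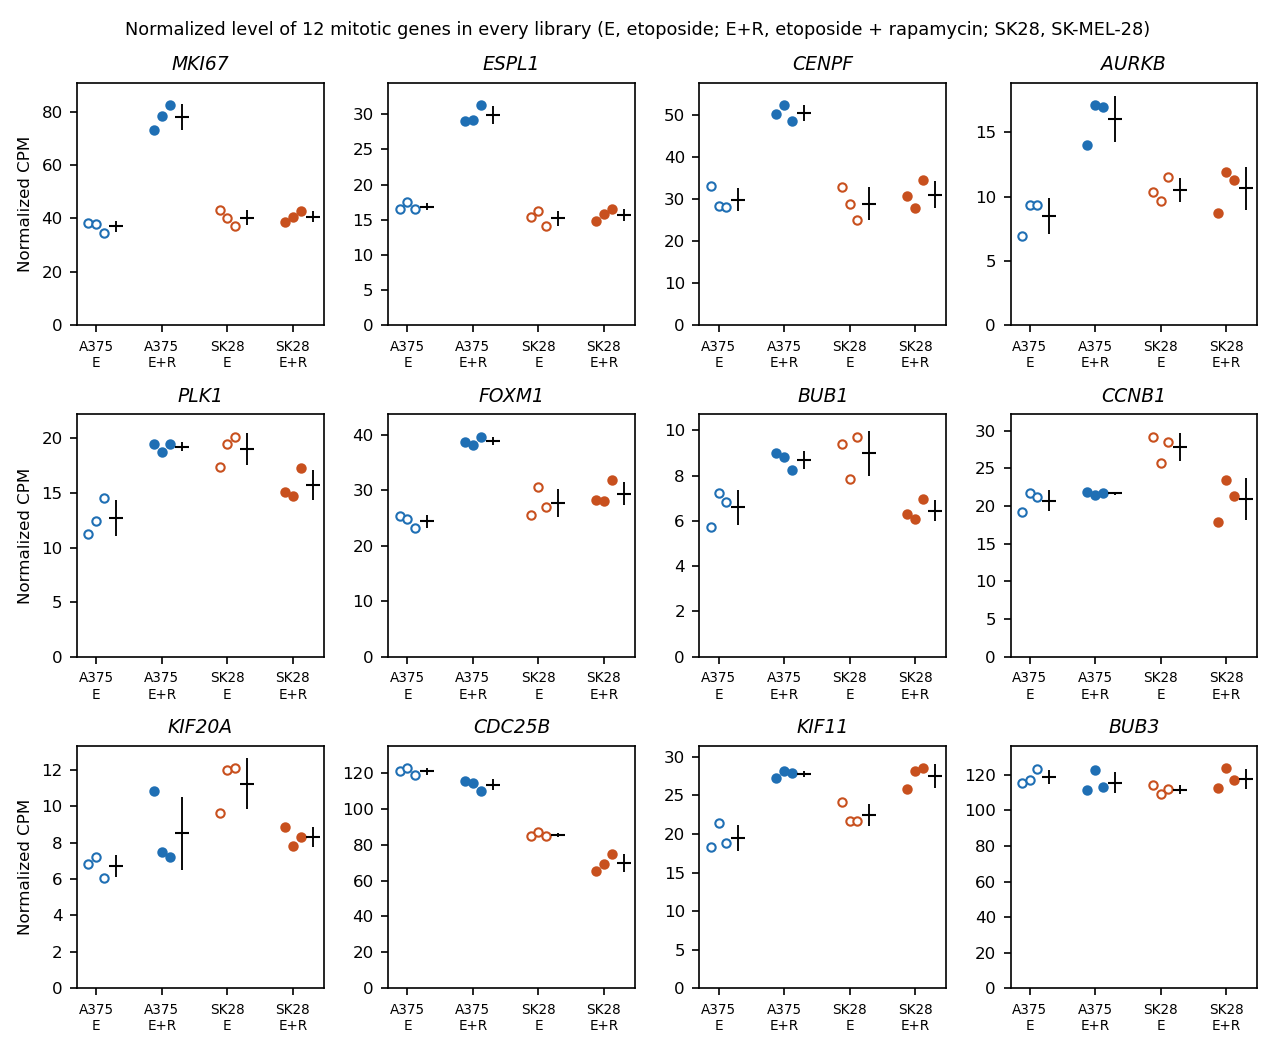
Normalized level (CPM, from 0) of 12 of the genes in each library, with etoposide (open) and etoposide + rapamycin (filled) for A375 (blue) and SK-MEL-28 (orange), and the mean with SD beside each group of 3. MKI67, ESPL1, CENPF and AURKB step up in A375 with rapamycin while their SK-MEL-28 groups overlap, CCNB1 and KIF20A have their highest group mean in SK-MEL-28 with etoposide alone, and the groups of BUB3 overlap.

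The 15 genes called in neither line nor in the difference were CCNB2, BUB3, TTK, MAD2L1, CDCA8, CENPE, NUF2, SPC25, HMMR, DLGAP5, NEK2, KIF23, ECT2, PTTG1 and SMC2. Not passing the test did not mean no difference, since NEK2, a centrosome kinase, had a log2 fold change of 0.56 (SE 0.21, edgeR adjusted p = 0.0637) in A375. Among them SPC25 had the widest error, with SE of 0.29 for A375 and 0.37 for SK-MEL-28 on the log2 scale.

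The lines were also compared within each treatment, in comparisons that share their libraries with those above. With etoposide alone, 18 of the 54 genes differed between the lines, 17 higher in SK-MEL-28 and CDC25B lower, when 31.7% of 19025 genes differed, 15.2% higher and 16.5% lower. The largest were KIF18A, at 1.06 (SE 0.19, edgeR adjusted p = 7.28e-04), KIF20A, at 0.74 (SE 0.13, edgeR adjusted p = 6.79e-04), and ECT2, at 0.73 (SE 0.08, edgeR adjusted p = 1.17e-05). CDC25B had a log2 difference of -0.50 (SE 0.05, edgeR adjusted p = 6.08e-06). The count was 11 without SK-MEL-28 etoposide replicate 1. With etoposide + rapamycin 28 genes differed, 27 lower in SK-MEL-28 and ECT2 higher, when 40.4% of 18817 genes differed, 19.8% higher and 20.5% lower. MKI67 led these at -0.94 (SE 0.06, edgeR adjusted p = 4.89e-08), followed by ESPL1 at -0.93 (SE 0.08, edgeR adjusted p = 8.10e-07) and GTSE1 at -0.89 (SE 0.13, edgeR adjusted p = 9.24e-05), and ECT2 stood at 0.71 (SE 0.08, edgeR adjusted p = 1.75e-05). The median of the 54 genes was 0.17 with etoposide and -0.24 with etoposide + rapamycin, against -0.00 and 0.00 for all genes tested. Values of the 2 lines did not overlap for 28 genes with etoposide, against 44.6% of all genes, and for 31 with etoposide + rapamycin, against 51.2%.

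Per kilobase of exon (union of exons in GENCODE release 44, GRCh38), the levels of the 54 genes spanned a wide range. With etoposide in A375, CDC25B was highest at 30.9 ± 0.520 CPM per kilobase (SD, n = 3), ahead of NCAPD2 at 17.7 ± 1.08, INCENP at 16.1 ± 0.919 and BUB3 at 14.5 ± 0.486. PTTG1, at 13.0 ± 0.914, and UBE2C, at 12.9 ± 0.824, came next and did not differ beyond their spread. KIF18A was lowest at 0.472 ± 0.0795, and only the edge of its SD range met that of CDC25C at 0.649 ± 0.103. In SK-MEL-28 with etoposide CDC25B again led at 21.9 ± 0.313 CPM per kilobase, and with etoposide + rapamycin NCAPD2, at 18.4 ± 0.389, and CDC25B, at 17.9 ± 1.27, lay within their spread. In all 4 groups CDC25B, NCAPD2, INCENP, UBE2C, BUB3 and PTTG1 took the first 6 places.

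The promoters of 47 of the 54 genes were in the RefSeq table used (GRCh38.p14), as windows of 300 bases from 250 before to 50 after each transcription start. FOXM1, TTK, BUB3, AURKA, BIRC5, TPX2 and UBE2C were not. Late cell cycle promoters are known for the cell cycle genes homology region (CHR), bound by the MuvB core, and for CCAAT boxes, bound by NF-Y. The 8 stretches below, each the 100 bases before the start, belong to 4 genes that rose in A375 and whose response differed between the lines (MKI67, ESPL1, PLK1 and GTSE1), 3 that fell in SK-MEL-28 (CCNB1, KIF20A and BUB1) and KIF11, which rose in both. They and the motifs were picked after the values were seen, and other genes whose response differed, such as KIF18A and AURKB, are not shown. Capitals mark TTTGAA and TTTAAA, the 2 forms of the CHR searched, and CCAAT, on either strand, so that TTCAAA and ATTGG are the reverse complements. In the MKI67 stretch the last TTTGAA and ATTGG share a base.

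MKI67 (chr10:128126424-128126523, reverse strand): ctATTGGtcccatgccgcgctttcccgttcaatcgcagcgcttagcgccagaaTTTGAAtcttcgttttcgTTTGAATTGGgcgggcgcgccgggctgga
ESPL1 (chr12:53268199-53268298, forward strand): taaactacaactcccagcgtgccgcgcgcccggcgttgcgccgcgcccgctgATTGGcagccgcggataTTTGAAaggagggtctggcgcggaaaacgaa
PLK1 (chr16:23678789-23678888, forward strand): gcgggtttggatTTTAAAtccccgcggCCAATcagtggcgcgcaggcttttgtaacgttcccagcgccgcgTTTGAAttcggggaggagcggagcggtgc
GTSE1 (chr22:46296770-46296869, forward strand): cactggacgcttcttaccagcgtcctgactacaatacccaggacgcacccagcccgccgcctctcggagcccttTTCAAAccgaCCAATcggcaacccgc
CCNB1 (chr5:69167050-69167149, forward strand): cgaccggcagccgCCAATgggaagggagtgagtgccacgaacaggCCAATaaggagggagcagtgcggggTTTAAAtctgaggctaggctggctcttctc
KIF20A (chr5:138179012-138179111, forward strand): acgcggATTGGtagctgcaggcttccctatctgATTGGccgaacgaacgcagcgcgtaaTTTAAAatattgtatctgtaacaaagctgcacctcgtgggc
BUB1 (chr2:110678064-110678163, reverse strand): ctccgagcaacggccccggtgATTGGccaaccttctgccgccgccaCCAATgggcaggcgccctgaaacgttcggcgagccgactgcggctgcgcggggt
KIF11 (chr10:92593030-92593129, forward strand): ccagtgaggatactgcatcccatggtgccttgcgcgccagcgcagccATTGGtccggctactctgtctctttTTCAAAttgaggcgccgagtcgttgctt

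In the stretches of MKI67, ESPL1, PLK1, GTSE1 and KIF11 a TTTGAA began at positions -47 to -26, counted from the transcription start. The PLK1 stretch also held TTTAAA, at -88. CCNB1 and KIF20A, which fell in SK-MEL-28, held TTTAAA at -30 and -41, and the BUB1 stretch held neither form. These stretches were picked, and other genes went the other way. INCENP, which fell in SK-MEL-28, had TTTGAA in its full window, and AURKB and KIF2C, which rose in A375, did not. Over the whole windows, TTTGAA was found in 34 of 47 mitotic genes (72.3%) and in 18.2% of 27305 genes in the table. Starting within 60 bases before the start it was found in 23 of 47 (48.9%), against 3.76% of all genes. TTTAAA was found in 17 (36.2%), against 14.5%, and either form in 41 (87.2%), against 27.9%. CCAAT was found in 36 (76.6%), against 39.7%. The median log2 fold change in A375 was 0.48 both for the 34 genes with TTTGAA, of which 23 were called, and for the 13 without, of which 7 were called. In SK-MEL-28, 2 of the 34 and 4 of the 13 were called, with medians of -0.02 and -0.10, and the response differed for 9 and 6, with medians of -0.40 and -0.48. For TTTAAA the medians with and without it were 0.45 and 0.50 in A375, -0.13 and -0.00 in SK-MEL-28 and -0.44 and -0.42 in the difference. For CCAAT the A375 medians were 0.47 and 0.49, those of SK-MEL-28 were -0.08 and 0.03, and those of the difference -0.48 and -0.37. SK-MEL-28 had 6 calls among the 36 genes with CCAAT and 0 among the 11 without. A375 had 22 and 8, and the response differed for 12 and 3. Over all genes tested, 19.0% were called in SK-MEL-28, 28.1% in A375 and 5.62% in the difference in response. Genes with and without a motif were not compared by a test. These matches describe letters in a window and not binding.

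**Figure D4:**
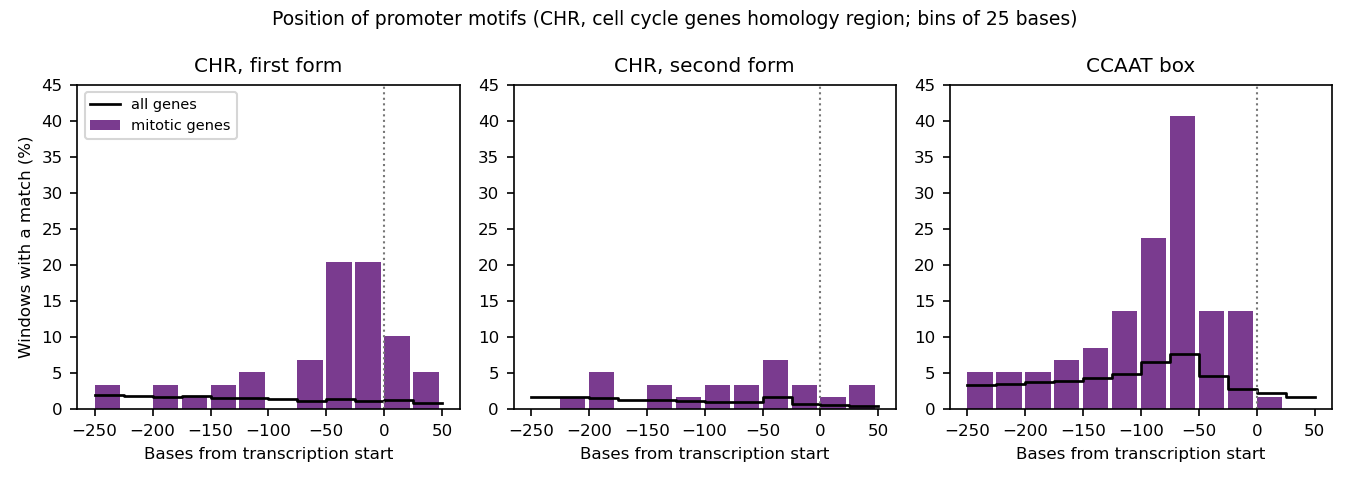
Share of promoter windows (vertical axis, %) in which a motif starts in each bin of 25 bases, by distance from the transcription start (horizontal axis), for 59 windows of the mitotic genes (bars) and 35116 windows of all genes (line). TTTGAA (first panel) reaches 20.3% in the 2 bins just before the start, where all genes hold 1.43% and 1.17%, TTTAAA (middle panel) reaches 6.78%, and CCAAT (last panel) reaches 40.7% from -75 to -51, against 7.62%.

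The rest of the mitotic machinery was read from lists outside the 54 genes. Of 77 other mitotic genes (32 of the kinetochore, 25 of spindle and cytokinesis, 20 of mitotic entry and chromosome structure), 39 rose and 3 fell in A375, with a median log2 fold change of 0.31. In SK-MEL-28, 15 rose and 3 fell, with a median of 0.11, and the difference in response was lower in SK-MEL-28 for 12 and higher for none, with a median of -0.21. TOP2A, topoisomerase II alpha and the target of etoposide, went from 43.8 ± 1.16 to 61.2 ± 0.605 CPM (SD, n = 3) in A375 and from 64.2 ± 3.31 to 51.4 ± 0.833 CPM in SK-MEL-28. It rose by 0.49 on the log2 scale (SE 0.05, edgeR adjusted p = 2.67e-05) in A375 and fell by 0.32 on the log2 scale (SE 0.05, edgeR adjusted p = 0.00123) in SK-MEL-28, the responses differing by -0.80 (SE 0.07, edgeR adjusted p = 7.89e-06). Of the abundant genes of these lists, CENPT, a bridge of the inner kinetochore, rose by 0.32 on the log2 scale (SE 0.08, edgeR adjusted p = 0.0105) in A375, and CKAP5, a microtubule polymerase, had 0.04 (SE 0.05, edgeR adjusted p = 0.592) there. PMF1, of the MIS12 complex, rose by 0.26 on the log2 scale (SE 0.06, edgeR adjusted p = 0.00892) in A375, and its difference in response was 0.00 (SE 0.10, edgeR adjusted p = 0.997). KPNA2, an importin that spindle factors bind, fell by 0.18 on the log2 scale (SE 0.05, edgeR adjusted p = 0.0248) in SK-MEL-28. The cohesin subunit RAD21 fell by 0.14 on the log2 scale (SE 0.05, edgeR adjusted p = 0.0470) in A375, and SMC1A, another subunit, had 0.12 (SE 0.05, edgeR adjusted p = 0.0735). CDC25A, a phosphatase of the G1/S and G2/M steps, rose by 0.46 on the log2 scale (SE 0.09, edgeR adjusted p = 0.00231) in A375, with 0.12 (SE 0.11, edgeR adjusted p = 0.518) in SK-MEL-28.

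In a list of the anaphase-promoting complex that also held FZR1 and UBE2S, which are not core subunits, 4 of 16 genes rose and 6 fell in A375, with a median of -0.13. In SK-MEL-28, 1 fell and none rose, with a median of 0.05. ANAPC5, a scaffold subunit, fell by 0.13 on the log2 scale (SE 0.05, edgeR adjusted p = 0.0429) in A375, and UBE2S, the ubiquitin-conjugating enzyme that extends chains for the complex, rose by 0.38 on the log2 scale (SE 0.06, edgeR adjusted p = 6.69e-04). Of 15 DREAM, MuvB and NF-Y factors, 5 rose in A375 and 4 in SK-MEL-28 and none fell, beside the same shares of all genes. MYBL2, or B-MYB, went from 20.6 ± 2.65 to 43.7 ± 2.07 CPM (SD, n = 3) in A375 and from 23.97 ± 1.92 to 26.9 ± 0.669 CPM in SK-MEL-28, rising by 1.09 on the log2 scale (SE 0.09, edgeR adjusted p = 5.11e-06) in A375 with 0.16 (SE 0.08, edgeR adjusted p = 0.193) in SK-MEL-28 and a difference in response of -0.92 (SE 0.12, edgeR adjusted p = 3.65e-04). E2F4, a DREAM subunit, rose by 0.16 on the log2 scale (SE 0.05, edgeR adjusted p = 0.0259) in A375, and its partner TFDP1 by 0.13 on the log2 scale (SE 0.04, edgeR adjusted p = 0.0442).

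Of 25 genes of replication licensing and forks, which are transcribed earlier in the cycle, 21 rose in A375 and 11 in SK-MEL-28 and none fell, with medians of 0.44 and 0.29. The difference in response passed for 1 of the 25, lower in SK-MEL-28, when 2.97% of all genes tested were lower. Its median was -0.24, and it was negative for 23 of the 25 and positive for 2. At an unadjusted edgeR p under 0.05, 13 of the 25 differed. MCM7, a subunit of the replicative helicase, rose by 0.92 on the log2 scale (SE 0.04, edgeR adjusted p = 9.24e-08) in A375 and by 0.67 on the log2 scale (SE 0.07, edgeR adjusted p = 1.79e-05) in SK-MEL-28, with a difference in response of -0.24 (SE 0.08, edgeR adjusted p = 0.108). PCNA, the sliding clamp, had -0.10 (SE 0.06, edgeR adjusted p = 0.225) in A375 and 0.06 (SE 0.06, edgeR adjusted p = 0.492) in SK-MEL-28.

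**Figure D5:**
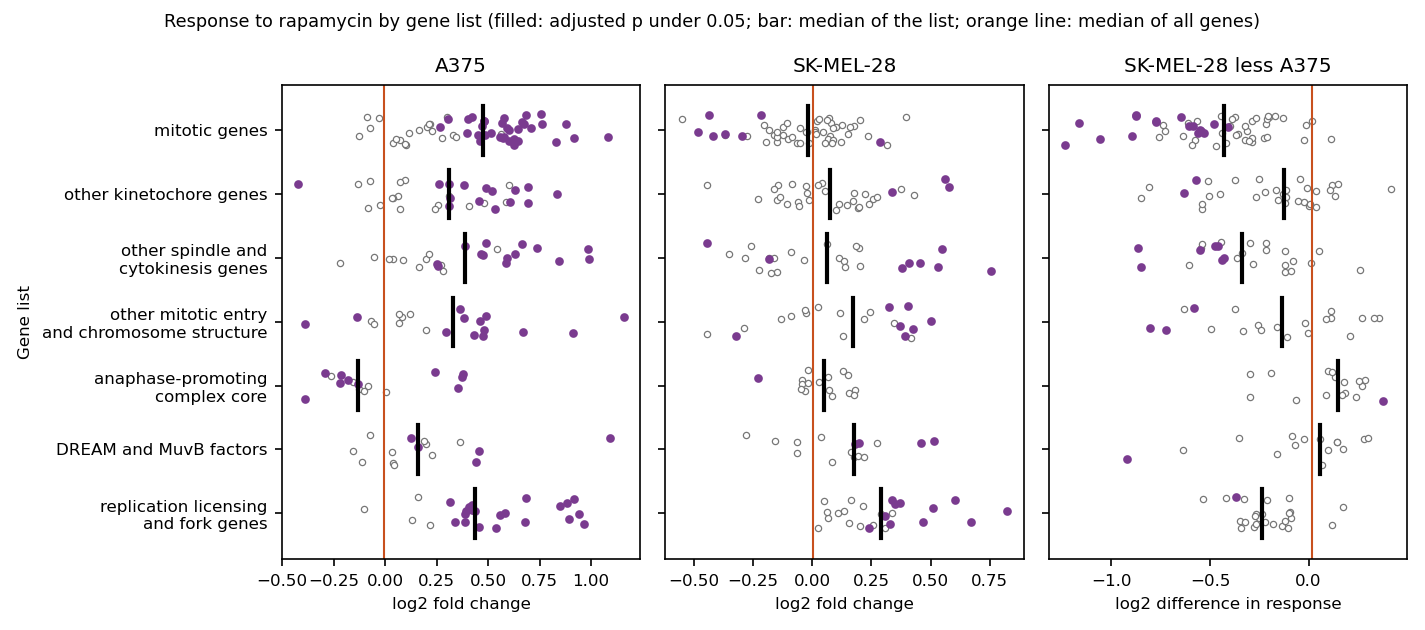
Log2 fold change with rapamycin in A375 (left panel) and SK-MEL-28 (middle panel), and the difference in response (right panel), for each gene of 7 lists, filled where the edgeR adjusted p was under 0.05, with the median of each list (black bar) and of all genes tested (orange line). The median of the 54 mitotic genes is 0.48, -0.02 and -0.43 in the 3 panels, and that of the replication genes is 0.44, 0.29 and -0.24.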

How the data were processed

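PolyA RNA of 12 cultures was sequenced, 3 in each of 4 groups, and groups were taken from the sample titles. The authors deposited a matrix of raw read counts per gene. Per the study's methods, reads were mapped to GRCh38 with HISAT2, converted with Samtools and quantified with StringTie against Ensembl genes, and DESeq2 was used for their own tests. How StringTie coverage became counts, and whether strand was used, are not given in the sources used here. Every sample column was used (0 left out). Totals were 28190672 to 32499659 counts per library, and 5 rows naming no gene (0.00099% to 0.0053% of counts) were set aside.

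Each comparison was fitted on all genes with edgeR 4.0.16 (limma 3.58.1, R 4.3.3): filterByExpr with a minimum count of 10, TMM factors (0.982 to 1.02), quasi-likelihood test, Benjamini-Hochberg adjusted p under 0.05. Over the 12 libraries, the factors were 0.982 to 0.993 with etoposide + rapamycin and 1.006 to 1.018 with etoposide, without overlap. Rapamycin was tested within each line on its 6 libraries, the lines within each treatment, and the interaction on all 12. Levels are TMM-normalized CPM. The study calls the libraries biological replicates, and the p-values set differences between groups against the spread between these libraries. The methods of the study used DESeq2 with a fold change of 1.5, and DESeq2 1.42.0 was run as an alternative, beside other scalings and filters, counts halved, a test against 1.5-fold, a replicate block, 1 fit of all libraries and leaving out each library. The code was tested on simulated data. The genes and all lists were chosen with earlier results of these data known, so none of them is independent of these data. Genes given in every library were, per role group, the 2 with the highest mean level and the 1 with the largest difference in response (both of MKI67 and FOXM1). Also named were genes called against the direction of most, the 2 most abundant of each other list, and TOP2A, MYBL2 and CDC25A. Other names in the text complete a count or were chosen after their values were seen, as were the promoter motifs and the check of line origin. Of the leukocyte markers chosen, 1 is not reported here.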

Additional observations from a re-analysis of the deposited data

Results flagged for a closer look

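For 17 of the 54 mitotic genes rapamycin shifted A375 and SK-MEL-28 libraries unequally, by the interaction of line and treatment in edgeR's quasi-likelihood test, and all 17 had the lower response in SK-MEL-28. Of all 20101 genes tested, 2.97% had a lower response there and 2.66% a higher one. The largest differences, on the log2 scale, were GTSE1 by -1.23 (adjusted p = 0.00754), KIF18A by -1.17 (adjusted p = 0.0347) and MKI67 by -1.06 (adjusted p = 7.89e-06). In the other kinases and mitotic entry genes, the responses differed for AURKB by -0.90 (adjusted p = 0.0138), BUB1 by -0.88 (adjusted p = 0.00716), PLK1 by -0.87 (adjusted p = 0.00207) and CCNB1 by -0.48 (adjusted p = 0.0415). Anaphase, kinetochore and kinesin genes differed as well, ESPL1 by -0.77 (adjusted p = 7.96e-04), CDC20 by -0.56 (adjusted p = 0.00812), CENPF by -0.65 (adjusted p = 0.0102) and KIF2C by -0.61 (adjusted p = 0.00419). Cytokinesis genes did so too, KIF20A by -0.77 (adjusted p = 0.0401), PRC1 by -0.55 (adjusted p = 0.0102) and ANLN by -0.53 (adjusted p = 0.00517). The remaining genes were FOXM1 by -0.59 (adjusted p = 0.00418), BIRC5 by -0.55 (adjusted p = 0.0320) and TACC3 by -0.41 (adjusted p = 0.0382). Of the 17, 12 passed in all 19 alternative settings other than a test against a fold change of 1.5, and CCNB1, BIRC5, KIF18A, TACC3 and KIF20A did not. The lines are those of the labels, and in 6 of 12 libraries, those labelled SK-MEL-28, a check of line origin did not match the label.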

How the results depend on the processing

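No called value changed sign under any alternative run. Testing against a fold change of 1.5 left 1 call in A375 (MKI67), 0 in SK-MEL-28 (0 also at unadjusted p under 0.05, and 8 with DESeq2 at the usual null), 1 in the difference in response (MKI67), 1 between lines with etoposide (KIF18A) and 2 with etoposide + rapamycin (MKI67 and ESPL1), fewer because the null is wider. A filter of 1 count in any library left 3 calls in SK-MEL-28 (CCNB1, CDC25B and AURKA), and DESeq2 gave 29 genes whose response differed, with no share of all genes given for that tool. The cause of either was not tested. Leaving out 1 library at a time, calls ranged from 30 to 33 in A375, from 2 to 6 in SK-MEL-28, from 13 to 18 in the difference in response, from 11 to 18 between lines with etoposide and from 21 to 27 with etoposide + rapamycin, and the median log2 difference of the last from -0.31 to -0.22. Other settings kept each of these counts, over both directions, within 1.5 times its value, and only a library-total scaling added a lower gene in A375 (CDC25B, -0.13, adjusted p = 0.0419). With that scaling, 12 genes were called over 1.5-fold in A375, against 17 with TMM. The median log2 fold change there was 0.43, against 0.48.

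Calls that held in every setting but the fold test were 28 of 34 in A375, 1 of 7 in SK-MEL-28, 12 of 17 in the difference, 11 of 18 with etoposide and 17 of 28 with etoposide + rapamycin. In A375 the call of CDC25C was lost when any 1 of A375 etoposide replicates 2 and 3 and A375 etoposide + rapamycin replicate 1 was left out (edgeR adjusted p between 0.0624 and 0.0800), that of CDK1 without A375 etoposide replicate 3, where its edgeR adjusted p was 0.0520, and that of NDC80 when any 1 of A375 etoposide replicate 2 and A375 etoposide + rapamycin replicates 2 and 3 was left out (edgeR adjusted p between 0.0533 and 0.0789). The call of BIRC5 in the difference in response was lost when any 1 of A375 etoposide replicate 3, A375 etoposide + rapamycin replicates 2 and 3, SK-MEL-28 etoposide replicates 2 and 3 and SK-MEL-28 etoposide + rapamycin replicates 1 and 3 was left out (edgeR adjusted p between 0.0592 and 0.0816). 

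The labels do not say whether same-numbered libraries were paired. Their deviations from group means correlated between -0.030 and 0.061 over all genes, against -0.043 to 0.040 for libraries with different numbers. With 3 libraries per group, such correlations cannot settle whether the libraries were paired. With the number as a replicate block, the calls were 32 in A375, 5 in SK-MEL-28, 17 in the difference, 19 with etoposide and 28 with etoposide + rapamycin. The block ended the SK-MEL-28 calls of KIF11 (adjusted p = 0.0501), the one gene that had risen there, and INCENP (adjusted p = 0.0573), the A375 calls of BUB1 (adjusted p = 0.0527) and KIF18A (adjusted p = 0.0522), that of KIF20A in the difference (adjusted p = 0.0530) and that of PRC1 between lines with etoposide + rapamycin (adjusted p = 0.0534). Without the 3 genes that share a locus with another gene name, an alternative added after seeing the data, the counts were 31, 7, 17, 17 and 26. With counts halved and rounded, 36 genes were called in A375 and 7 in SK-MEL-28, and how depth bears on the scarce genes was not tested.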
